A study of Tigriopus californicus with 4 samples.

Results

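Microtubules are hollow filaments of alpha- and beta-tubulin, and gamma-tubulin in its ring complex starts new ones. Kinesins mostly walk towards the plus end of the filament and dynein, with its activator dynactin, towards the minus end. Together they carry vesicles and organelles, pull chromosomes apart at cell division and, as the axonemal dyneins, beat cilia. Tubulin subunits need a chaperonin and their own chaperones to fold.

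The members were the contigs of *Tigriopus californicus*, a tidepool copepod, whose product name held tubulin, dynein, dynactin, kinesin or microtubule-associated. Names with a species in square brackets were left out, which removed 2 SD contigs (a dynactin and a kinesin) and 0 SC contigs. The rule took 208 of 41209 contigs, 106 of 20278 in the San Diego (SD) assembly and 102 of 20931 in the Santa Cruz (SC) assembly. The SD members were 23 tubulins (10 alpha, 12 beta and 1 gamma), 14 tubulin partners, 23 dyneins and dynactins, 34 kinesins and 12 microtubule-associated proteins. The SC members were 19 tubulins (9 alpha, 9 beta and 1 gamma), 11 partners, 21 dyneins and dynactins, 41 kinesins and 10 microtubule-associated proteins. Tubulin partners are the proteins that fold tubulin, modify it or hold gamma-tubulin in its ring complex. Names come from BLAST, and contigs with the same name may be fragments of 1 gene or near-identical copies, whose reads are hard to place. Contigs are therefore counted as contigs and not as genes.

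Each population gave 1 control and 1 heat stress library, each from a pool of laboratory-reared, wild-derived copepods of all life stages. Heat stressed animals spent 1 h at 35 °C and 1 h of recovery at 20 °C before RNA extraction, while control animals stayed at 20 °C. RNA came from whole animals, so fewer cells of a type and less RNA per cell cannot be told apart. The controls shared 1 sequencing lane and the heat stress libraries the next, and an effect of the lane cannot be told apart from that of heat.

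The deposited unit is RPKM, reads divided by contig length and library total. The library totals recovered from these values were 1947202 reads for SD control, 5583127 for SD heat stress, 3256758 for SC control and 4948622 for SC heat stress. Member contigs held a median of 36 control and 88.5 heat stress reads in SD, and 34 and 80.5 in SC. With 1 library per condition there is no replicate error, and every interval below covers counting error only. A contig was called higher or lower when its heat stress to control ratio, relative to the median contig of its population, was at least 2 or at most 0.5 and the exact 95% interval of that ratio from the recovered reads excluded 1. The median contig stood at a log2 ratio of -0.03 in SD and 0.40 in SC, and ratios below are relative to it unless said otherwise. The SC control library stood apart from the other 3. Across 4381 product names on 1 contig in each population, its log2 RPKM correlated with SD control at Pearson's *r* = 0.780 and with SD heat stress at 0.778, whereas SC heat stress correlated with them at 0.860 and 0.869, a description over genes. Every SC ratio below rests on this library.

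In SD the microtubule system stayed close to the median contig after heat stress. Of 106 members 1 was called higher and 1 lower, against 4.17% and 3.67% of all SD contigs, and the median log2 ratio of the members was -0.02. In SC 19 of 102 members were called higher and 7 lower, against 10.9% and 14.9% of all SC contigs, with a median log2 ratio of 0.26. The calls were spread unevenly over the families. Kinesins made up 12 of the 19 contigs called higher and none of those called lower. With RPKM as deposited, not relative to the median contig, 30 SC members were called higher and 2 lower. All SC contigs split into 2279 higher and 3123 lower relative to the median contig, and 4444 and 1398 as deposited.

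**Figure D1:**
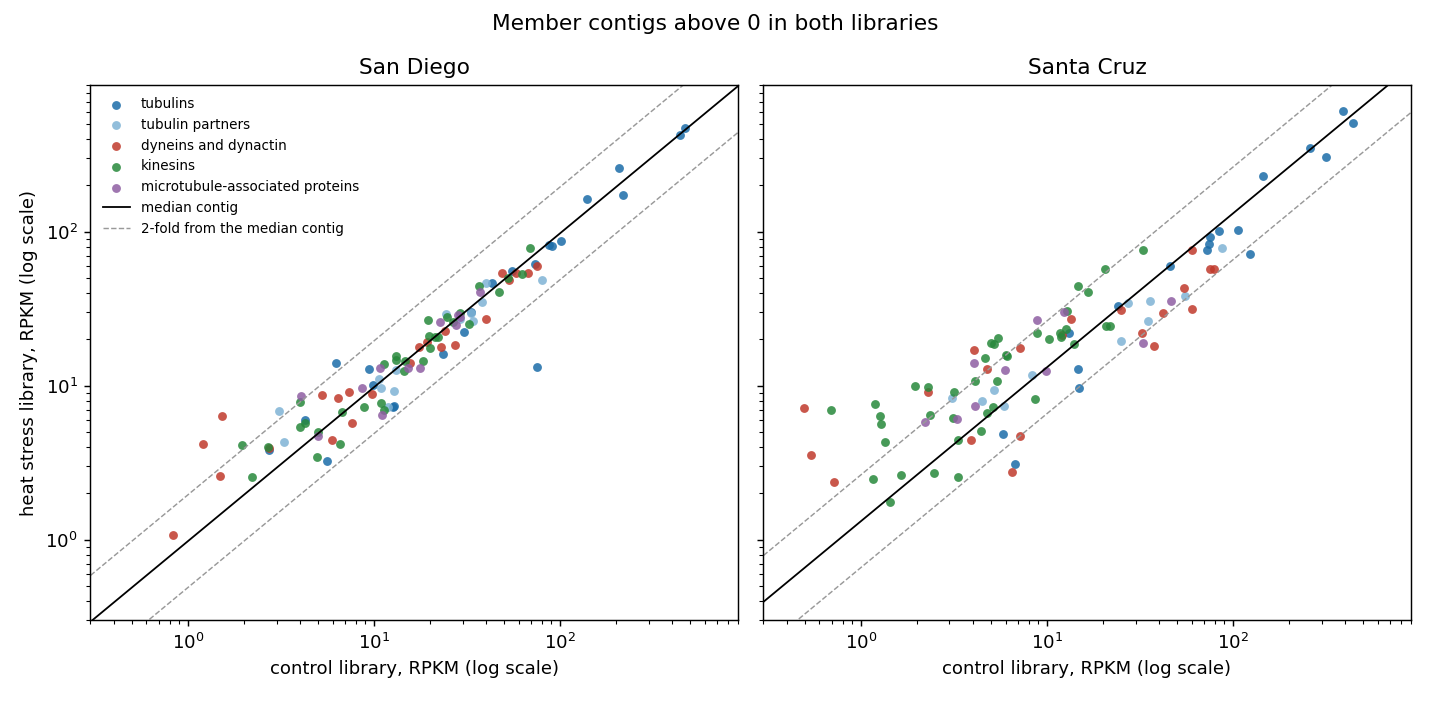
RPKM of each member contig in the control library (x axis, log scale) and the heat stress library (y axis, log scale), SD left and SC right, coloured by family and left out where a library is at 0 (1 contig in each population). The solid line is the median contig and dashed lines are 2-fold from it. SD points lie along the line, while many SC kinesins (green) lie above the upper dashed line.

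Tubulins took more of the RPKM than any other family of the system, 55.6% of the member sum in SD control, 55.7% in SD heat stress, 63.7% in SC control and 62.5% in SC heat stress. In SD most of it sat on a few contigs. The beta-tubulin named isoform a (SD_Contig61980) had 472 RPKM at 20 °C and 476 after heat stress, and an alpha-1 chain (SD_Contig42809) at 441 and 425. Their ratios were 1.03 and 0.99, so the most abundant beta- and alpha-tubulin moved with the median contig. A beta-4 chain (SD_Contig54732) stood at 208 RPKM and then 258, another beta-4 chain (SD_Contig47937) at 140 and 164, and an alpha-1 chain (SD_Contig69739) at 217 and 174. None of these was called. The other SD alpha and beta contigs lay between 2.74 and 101 RPKM in the control.

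The SD contigs that were called both had few reads. The gamma-1 tubulin (SD_Contig48378), which belongs to the nucleation site of the filament, stood at 6.25 RPKM in the control library and 14.0 after heat stress, from 7 and 45 reads. Its ratio was 2.29, with an interval of 1.03 to 6.03. A 68 bp fragment named tubulin beta chain (SD_Contig68532) fell from 75.5 to 13.2 RPKM on 10 and 5 reads, a ratio of 0.18 (0.05 to 0.57). No member was called with at least 10 reads in both libraries. The median log2 ratio of the SD tubulins was -0.06. Among the SD alpha-tubulins 2 of 10 contigs lay above the median contig, and among the beta-tubulins 7 of 12. The alpha sum went from 965 to 865 RPKM and the beta sum from 1186 to 1179, an alpha to beta ratio of 0.81 and then 0.73.

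In SC the most abundant contigs were again an alpha-1 chain (SCN_Contig40392), with 440 RPKM at 20 °C and 512 after heat stress, and a beta-1 chain (SCN_Contig40383), with 393 and 606. Another alpha-1 chain (SCN_Contig55988) stood at 316 and 305, a contig named tubulin beta (SCN_Contig47254) at 258 and 348, and one more alpha-1 chain (SCN_Contig34956) at 146 and 230. The other SC alpha and beta contigs, apart from those called, lay between 5.83 and 106 RPKM in the control. Of the alpha-tubulins, 3 were called lower, and no beta-tubulin was called. Over the 19 SC tubulins that was 15.8% called lower, against 14.9% of all SC contigs. An alpha-1 chain fragment of 161 bp (SCN_Contig46884) fell from 124 to 71.5 RPKM, a ratio of 0.44 (0.30 to 0.64). The alpha-1c chain (SCN_Contig34586) fell from 14.9 to 9.65 RPKM, a ratio of 0.49 (0.34 to 0.72), and the alpha-3 chain (SCN_Contig37920) from 6.71 to 3.11 RPKM, a ratio of 0.35 (0.20 to 0.61). With RPKM as deposited only the alpha-3 chain of the 19 SC tubulins was still called lower, and relative to contigs of like level the alpha-3 and alpha-1c chains were. Kal's *Z*-test, which the study describes on proportions of reads, was run here on RPKM and on recovered reads. On RPKM it called none of these and instead called 3 abundant tubulins higher, the alpha-1 chain SCN_Contig34956 and the beta contigs SCN_Contig40383 and SCN_Contig47254. They had ratios of 1.2, 1.17 and 1.02 to the median contig. On recovered reads it called 2 SC tubulins higher, SCN_Contig34956 and SCN_Contig40383, and 0 lower.

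The direction of the SC tubulins as a family turned with the scaling. Their median log2 ratio was -0.20 relative to the median contig, -0.13 relative to contigs of like length, 0.20 as deposited and 0.37 relative to contigs of like level. All SC contigs above 100 RPKM, where the abundant tubulins sit, had a median of -0.69. The alpha sum went from 1174 to 1289 RPKM and the beta sum from 1040 to 1387, an alpha to beta ratio of 1.13 and then 0.93. This ratio does not depend on the scaling, and it was lower after heat stress in both populations, with no replicate to set it against. The SC gamma-1 tubulin (SCN_Contig5238, 207 bp) had 0 reads before heat stress and 14 after it, 13.7 RPKM. Against a floor of 3 control reads it was at least 2.33-fold higher, and the lower end of its exact interval was 1.66. By ratio and interval, gamma-tubulin was the 1 tubulin class called higher in both populations, on a single contig with 7 or fewer control reads in each.

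Against 10.9% called higher and 14.9% lower of all SC contigs, 1 of 11 SC tubulin partners was called higher and 0 lower. In SD, against 4.17% and 3.67% of all contigs, 0 of 14 partners were called. The folding cofactors, which assemble the alpha-beta dimer after the chaperonin has released its subunits, were the more abundant of them. Tubulin-specific chaperone c stood at 80.2 RPKM in SD control and 48.6 in SD heat stress, a ratio of 0.62 (0.53 to 0.73) that does not reach 2-fold. The contig named chaperone c-like in SC stood at 87.2 and 78.1, a ratio of 0.68. Chaperone d stood at 39.8 and 46.3 RPKM in SD and at 27.3 and 34.7 in SC, chaperone a at 33.2 and 29.7 in SD and 55.5 and 38.4 in SC, and folding cofactor b at 34.2 and 26.2 in SD and 35.2 and 26.4 in SC. Of the 5 folding contigs in each population 4 lay below the median contig, although 3 of the 5 in SC lay above it when set against contigs of like level. Gamma-tubulin complex component 2, a core of the nucleating ring, stood at 38.0 and 35.2 RPKM in SD and at 35.9 and 35.6 in SC.

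The partner called higher in SC was a tau-tubulin kinase 1 (SCN_Contig33765), a kinase that in mammals phosphorylates tau and tubulin. It went from 3.08 to 8.30 RPKM on 11 and 45 reads, a ratio of 2.05 (1.04 to 4.39), and was not called relative to contigs of like level. The SD contig of this name (SD_Contig40074) stood at 3.09 and 6.89 RPKM on 5 and 32 reads, a ratio of 2.28 that was not called because its interval held 1.

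Dyneins and dynactins gave 0 calls among 23 contigs in SD, against 4.17% higher and 3.67% lower of all SD contigs. In SC they gave 3 higher and 3 lower among 21, 14.3% each, near the 10.9% and 14.9% of all SC contigs. The SC calls were 5 higher and 1 lower as deposited, and 2 higher and 3 lower relative to contigs of like level. The family median was -0.05 in SD and -0.07 in SC on the log2 scale. The SC median was -0.80 over the 15 contigs with at least 10 control reads, 0.32 as deposited and 0.28 relative to contigs of like level, so its direction turned with the setting. Within the family the motor subunits and the small subunits lay on opposite sides of the median contig in both populations. Dynein heavy chains, the subunits with the motor itself, lay above it on 8 of 9 contigs in SD (median log2 ratio 0.40) and on 4 of 4 in SC (1.95). Dynein light and light intermediate chains, which in cytoplasmic dynein help to hold cargo, here include an outer arm (axonemal) chain in each population. They lay below the median contig on 6 of 6 in SD (-0.31) and on 7 of 7 in SC (-0.95). Both medians kept their sign as deposited and relative to contigs of like length or like level.

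The level of the contigs moved with this split, and its part in it was not tested. The SD heavy chains had a median of 2.75 RPKM in the control and the light and light intermediate chains 49.2. All SD contigs under 5 RPKM had a median log2 ratio of 0.45, and all SC contigs under 5 RPKM 0.66. In SC the classes of 20 to 50, 50 to 100 and over 100 RPKM had medians of -0.35, -0.66 and -0.69. Set against contigs of like level, the SC heavy chains had a median of 1.46 and the light and light intermediate chains -0.60. The SC heavy chains also held few reads, since 1 of the 4 contigs had at least 10 in the control.

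The most abundant heavy chain stood at 48.7 and 53.9 RPKM in SD (SD_Contig37407) and at 13.5 and 27.0 RPKM in SC (SCN_Contig29593), ratios of 1.13 and 1.52. The heavy chain called higher was isoform c in SC (SCN_Contig62147), which went from 0.49 to 7.14 RPKM on 1 and 22 reads, a ratio of 11 with an interval of 1.78 to 454. In SD the contig of this name stood at 7.38 and 9.13 RPKM, so that SC heat stress and both SD libraries lay between 7.14 and 9.13 RPKM and SC control alone was low. The contigs named ciliary dynein heavy, an axonemal motor, stood at 1.21 and 4.20 RPKM in SD and 0.54 and 3.57 in SC, each on 1 control and 10 heat stress reads, and were not called.

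Among the light chains called in SC, the tctex-type 1 chain (SCN_Contig36762) fell from 59.9 to 31.8 RPKM, a ratio of 0.40 (0.30 to 0.54). Its SD counterpart stood at 40.1 and 27.1 RPKM, a ratio of 0.69. The roadblock-type 2 chain (SCN_Contig48564) fell from 6.51 to 2.76 RPKM on 14 and 9 reads, a ratio of 0.32 (0.12 to 0.80). Neither was called as deposited, and of these the roadblock chain was called relative to contigs of like level. The other abundant subunits were not called. The cytoplasmic dynein light chain stood at 75.5 and 59.9 RPKM in SD and at 60.3 and 76.3 in SC. The SD light intermediate chain stood at 66.9 and 54.0 RPKM, and the 2 SC contigs named cytoplasmic dynein 1 light intermediate chain 2 at 75.7 and 57.3 and at 79.3 and 57.7. The cytosolic intermediate chain, which links the motor to dynactin, stood at 53.4 and 48.7 RPKM in SD and at 54.7 and 43.2 in SC.

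Dynactin subunits differed in direction in SC. Subunit 1, the p150 arm that binds both dynein and the filament, was called higher on both contigs with the name subunit 1. These went from 4.04 to 17.0 RPKM on SCN_Contig30764 (ratio 3.19, 2.25 to 4.64) and from 4.8 to 12.8 RPKM on SCN_Contig29779 (2.03, 1.18 to 3.68). The call on SCN_Contig29779 was lost relative to contigs of like level. A further SC contig, named 150 kDa dynein-associated polypeptide or glued, was not called. It stood at 7.18 and 17.7 RPKM on 4 and 15 reads, a ratio of 1.875 (0.60 to 7.76), and the SD contig of this name had a ratio of 0.92. Subunit 6, a small subunit at the pointed end of the complex, was called lower, from 37.9 to 18.3 RPKM (0.37, 0.26 to 0.51). In SD subunit 1 stood at 17.4 and 17.9 RPKM and subunit 6 at 27.3 and 18.5 RPKM, ratios of 1.05 and 0.69. For subunit 1, SC heat stress on the longer contig was thus near both SD libraries and SC control was below the other 3.

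Kinesins had the most contigs called in SC by count, all in 1 direction, although the share called in either direction was about as high among dyneins and dynactins (6 of 21) and microtubule-associated proteins (3 of 10). In SD 0 of 34 kinesin contigs were called in either direction, 18 of the 33 above 0 in both libraries lay above the median contig, and the median log2 ratio was 0.04. In SC 12 of 41 (29.3%) were called higher and 0 lower, against 10.9% and 14.9% of all SC contigs. Of the 41, 34 lay above the median contig, and the median log2 ratio was 0.86. The middle 50% of these contigs lay between 0.11 and 1.28. The summed RPKM of the kinesins went from 642 to 643 in SD and from 307 to 667 in SC. As a share of the tubulin sum, kinesins stood at 29.9% and 31.4% in SD, 13.9% in SC control and 25% in SC heat stress. SC control held the low value of the 4 on both measures, the sums being on RPKM as deposited.

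The SC count kept its direction under each scaling. It was 20 higher and 0 lower of 41 as deposited, against 4444 and 1398 of all 20931 SC contigs. Relative to contigs of like length it was 13 and 0, against 2339 and 2879 of all contigs. Relative to contigs of like level it was 11 and 0, against 2015 and 2361. The kinesins called changed in part, since relative to contigs of like length or like level some calls were lost and others gained. Among the 25 SC kinesins with at least 10 control reads, 8 were called higher and 0 lower, with a median of 0.80. No count over all contigs with that many reads stands beside this. Kal's *Z*-test called fewer members on RPKM than on recovered reads. On RPKM it called 5 SC members higher and 0 lower, against 5.54% of all SC contigs in either direction, and these were 3 tubulins and 2 kinesins, the heavy chain SCN_Contig29057 and kinesin-like protein a. On reads it called 22 higher, 16 of them kinesins, and 2 lower, against 17.9%. In SD it called 0 higher and 1 lower on RPKM, against 2.59%, and 0 higher and 2 lower on reads, against 3.18%. The 2 SD contigs called on reads were the alpha-1 chain SD_Contig69739 and tubulin-specific chaperone c.

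**Figure D2:**
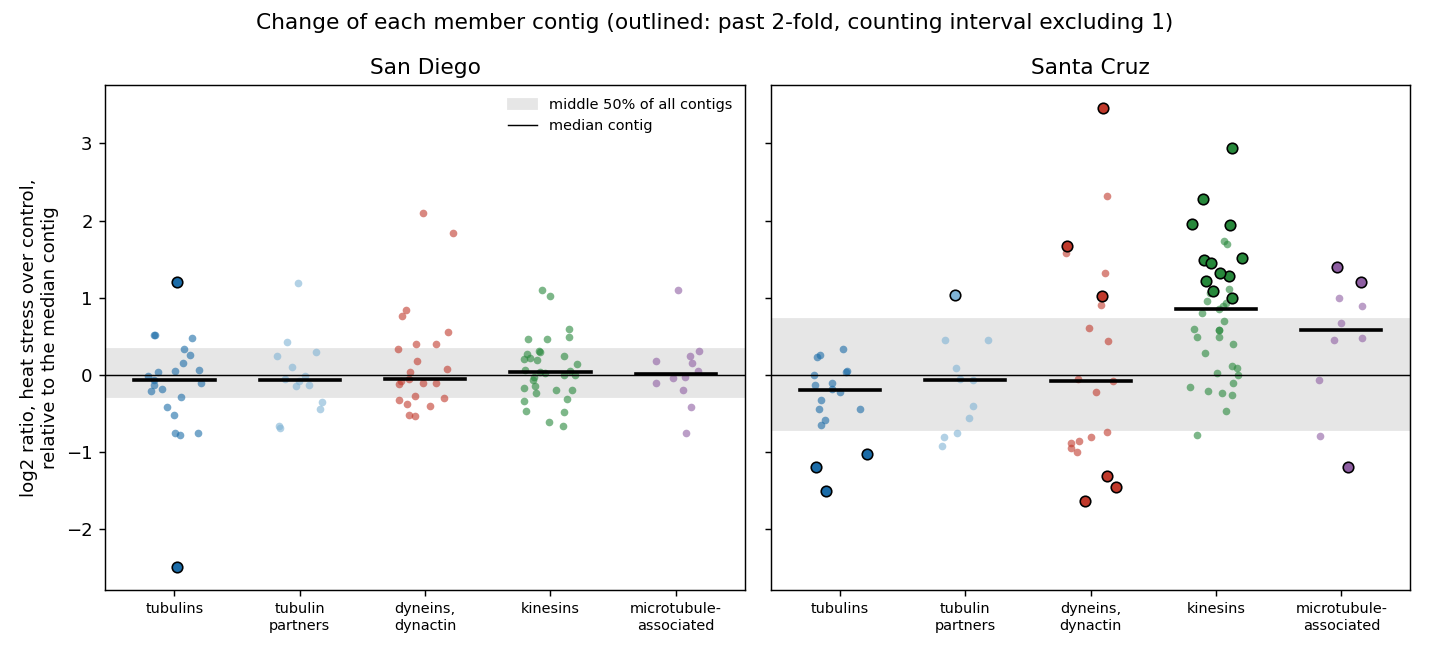
Log2 ratio of heat stress to control RPKM relative to the median contig (y axis) for each member contig above 0 in both libraries, by family (x axis), SD left and SC right. Thick bars are family medians, the grey band holds the middle 50% of all contigs, and outlined points were called. SC kinesins have a median of 0.86 with 12 outlined points above the line and none below, while the SD kinesins have a median of 0.04 and none outlined.

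Some of the called SC kinesins carry names of motors that work on the spindle. Kinesin family member 4a, a motor that binds chromosomes, went from 5.49 to 20.3 RPKM on 60 and 337 reads (SCN_Contig28561), a ratio of 2.81 (2.13 to 3.76). A second contig of this name (SCN_Contig62267) stood at 12 and 20.7 RPKM, a ratio of 1.32, and was not called. Boursin, a sea urchin motor of the group that pushes spindle poles apart, went from 14.7 to 44.7 RPKM, a ratio of 2.32 (1.83 to 2.95). In SD the 4a contigs stood at 22.1 and 20.7 and at 21.4 and 20.8 RPKM, and boursin at 36.9 and 44.3 RPKM, so SC heat stress was near both SD libraries for these names.

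Other motors with a role in division were not called. The mitotic kinesin kif23, which acts in cytokinesis, stood at 12.9 and 30.6 RPKM in SC, a ratio of 1.81, and at 29.0 and 29.7 RPKM in SD. The minus-end motor kifc1 stood at 14.0 and 18.8 RPKM in SC and 19.7 and 21.2 in SD. The depolymerase named mcak-like in SC stood at 20.7 and 24.3 RPKM, a ratio of 0.89. Not every spindle motor was called.

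Cargo motors were also among the contigs called higher in SC. Kinesin family member 21a, a neuronal motor in mammals, was called on both contigs, from 1.2 to 7.61 RPKM on SCN_Contig28993 (ratio 4.83, 2.09 to 13.7) and from 4.63 to 15.2 RPKM on SCN_Contig61862 (2.50, 1.5 to 4.41). The call on SCN_Contig61862 was lost relative to contigs of like level. One of 3 contigs with the bare name kif13a, a vesicle motor, was called (SCN_Contig61951), from 1.95 to 9.90 RPKM (3.86, 2.05 to 8.03). Other called contigs have names that state no cargo role. The contig named kinesin motor domain containing protein (SCN_Contig33226) went from 0.69 to 6.97 RPKM on 3 and 46 reads, a ratio of 7.67 (2.46 to 38.5), and kinesin k39 (SCN_Contig29903) from 5.04 to 18.9 RPKM, a ratio of 2.85 (1.97 to 4.24). A further k39 contig (SCN_Contig33572) stood at 1.29 and 5.66 RPKM on 3 and 20 reads, a ratio of 3.33 (0.99 to 17.5), and was not called. It was called as deposited and relative to contigs of like length.

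The remaining calls were kinesin-73, the *Drosophila* motor 98a, kif19, kinesin-like protein a and a partial kinesin family member, with ratios from 2 to 3.83. The contig for 98a lay at the threshold itself. Relative to contigs of like level, kinesin-73, 98a and kif19 were not called. Relative to contigs of like length, 98a and kinesin-like protein a were not called. Conventional kinesin, the main carrier of vesicles along axons, was not called. Its heavy chain stood at 33.1 and 75.7 RPKM in SC (1.74, 1.37 to 2.23) and the more abundant light chain contig (SCN_Contig29927) at 16.6 and 40.5 RPKM (1.86, 1.53 to 2.27). Both, and kif23, were called higher as deposited and relative to contigs of like level. The other SC light chain contig (SCN_Contig38415) stood at 4.45 and 5.08 RPKM (0.87, 0.44 to 1.76) and was not called under any of these scalings. The SD heavy chain of highest level stood at 69.0 and 78.4 RPKM. The kinesin-associated mitochondrial adaptor protein, which couples the motor to mitochondria, stood at 21.8 and 24.3 RPKM in SC and at 24.8 and 27.9 in SD. In SC 7 of 41 kinesins lay below the median contig, among them kif3b (ratio 0.58), 1 of the contigs named unc-104 (0.72) and the mcak-like motor.

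Of the microtubule-associated proteins 0 of 12 were called in SD, and 2 of 10 were called higher and 1 lower in SC. All SC contigs had 10.9% called higher and 14.9% lower, and all SD contigs 4.17% and 3.67%. As deposited and relative to contigs of like level the SC calls were 3 higher and 0 lower. The contig named microtubule-associated protein (SCN_Contig62809) went from 8.82 to 26.7 RPKM, a ratio of 2.30 (1.46 to 3.79), and a golgi microtubule-associated isoform b (SCN_Contig62353) from 4.06 to 14.0 RPKM, a ratio of 2.63 (1.40 to 5.35). One of 3 SC contigs named 77 kDa echinoderm microtubule-associated protein was called lower (SCN_Contig35403), from 33 to 19.1 RPKM (0.44, 0.27 to 0.70), and the others stood at 46.8 and 35.4 and at 9.93 and 12.5 RPKM. In SD futsch, a neuronal microtubule binder of *Drosophila*, stood at 37.4 and 40.5 RPKM on its more abundant contig. Light chain 3a, better known as a marker of autophagosomes, stood at 28.3 and 28.6 RPKM in SD and at 12.4 and 30.2 RPKM in SC, a ratio of 1.85 (1.52 to 2.26). It was the additional name called higher under those scalings.

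The populations were compared on the 27 member names that sat on exactly 1 contig in each assembly, of 4397 such names in all. RPKM was set for each library on its own assembly, so levels across populations are less comparable than within one. Each fold is SC over SD, relative to the median shared name, and is called past 2-fold with its counting interval excluding 1. Among the controls 1 member name was called higher in SC and 6 lower, against 16.7% and 17.2% of all shared names. After heat stress 0 were called in either direction, against 5.14% higher and 6% lower. At 1.5-fold, 2 were called after heat stress, 1 in each direction. The median distance between the populations was taken as an absolute log2 difference. In RPKM as deposited it was 0.58 in the controls and 0.24 after heat stress over the 27 member names, and 0.77 and 0.36 over all shared names. Relative to the median shared name it was 0.81 and 0.26 over the member names, and 0.74 and 0.36 over all shared names. Whether members lay closer than other names in the controls thus turned with the scaling.

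The names called lower in SC control were 5 of the 10 shared kinesins and 1 dynein heavy chain. Kinesin-like protein kif19, a motor that trims cilia in mammals, stood at 8.80 RPKM in SD control and 1.35 in SC control, a fold of 0.18 (0.08 to 0.41), with 7.29 and 4.30 RPKM in the heat stress libraries. Kinesin-like protein a stood at 62.7 and 20.7 RPKM in the controls, a fold of 0.39 (0.32 to 0.47), and at 53.4 and 57.6 RPKM after heat stress. Boursin had a fold of 0.47 (0.36 to 0.60) in the controls and 0.99 (0.88 to 1.12) after heat stress. Costal2, a kinesin relative that in *Drosophila* acts in Hedgehog signalling, stood at 10.9 and 2.29 RPKM in the controls, a fold of 0.25 (0.07 to 0.89) on 2 SC reads. Kinesin family member 20a-like had a fold of 0.20 (0.07 to 0.58) on 3 SC reads, and dynein heavy chain isoform c 0.08 (0.01 to 0.43) on 1. Some of these names set a short SC contig against a longer SD one, 268 bp against 1416 bp for costal2 and 290 bp against 4695 bp for 20a-like. For kif19, SC had a further contig named kinesin family member 19, at 1.16 and 2.49 RPKM, which was not part of this comparison. The name called higher was the gamma tubulin ring protein, at 13.1 RPKM in SD control and 24.9 in SC control, a fold of 2.22 (1.5 to 3.29). With RPKM as deposited 9 names were called lower in SC control and 0 higher, so this call was lost.

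SC control held the lowest RPKM of the 4 libraries for 9 of the 10 shared kinesin names, and for 15 of all 27 member names. With each library taken relative to the median shared name, a comparison chosen after seeing the data, these counts were 8 and 14. How many of all shared names were lowest in SC control was not counted, so the share of members has nothing beside it. The median contig itself stood at 10.9 RPKM in SC control, against 13.9 in SD control, 13.8 in SD heat stress and 14.3 in SC heat stress. Kif3b was the exception among the kinesins in RPKM as deposited, with 3.35 RPKM in SC control and 2.57 in SC heat stress. The median kinesin name stood at 19.0 RPKM in SD control, 17.9 in SD heat stress, 12.3 in SC control and 20.4 in SC heat stress. For these kinesin names the median of SC heat stress was thus nearer to both SD libraries than that of SC control.

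**Figure D3:**
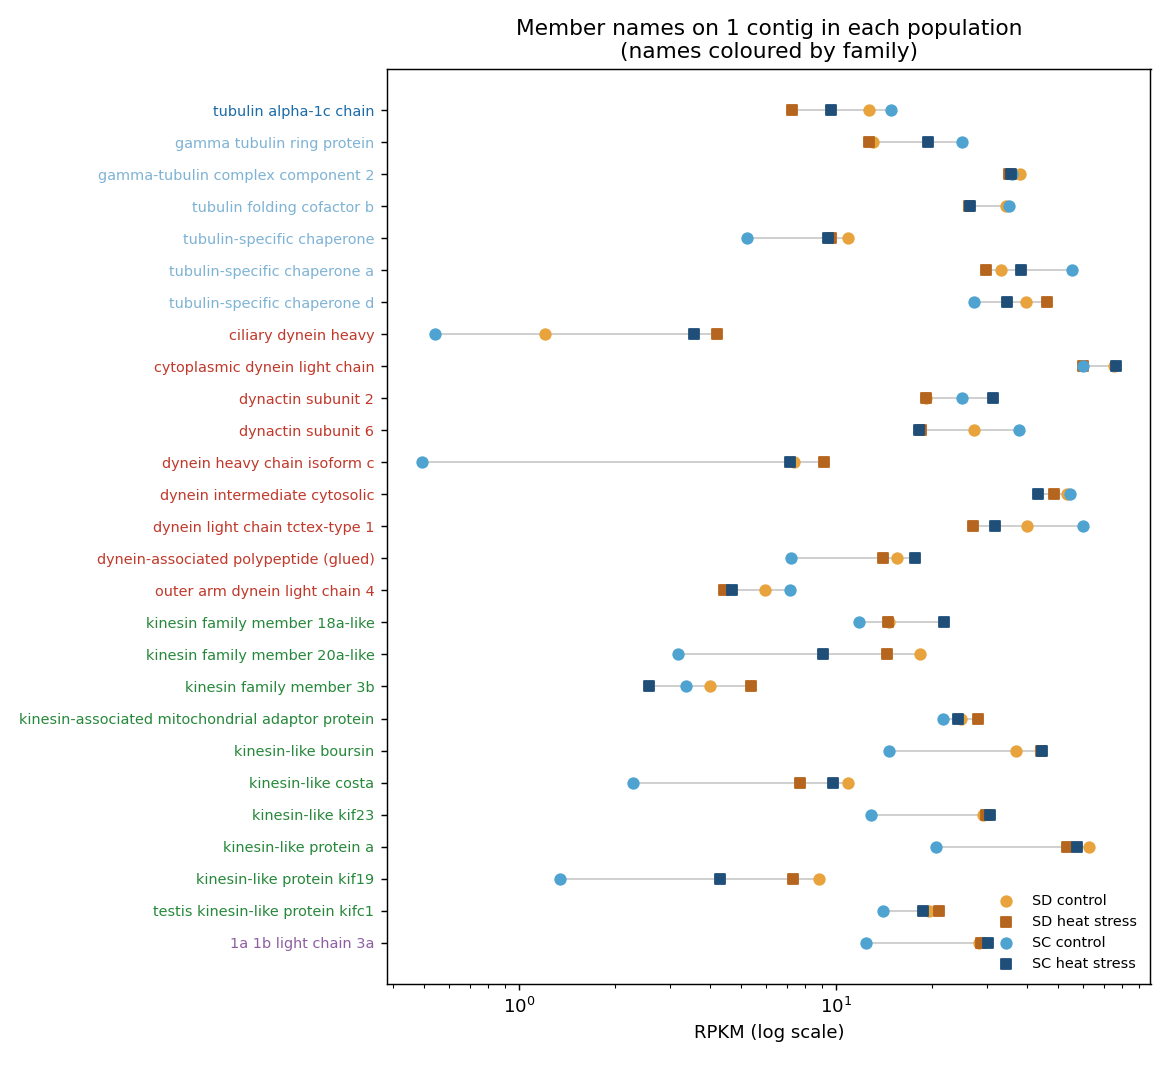
RPKM (x axis, log scale) of the 27 member names found on 1 contig in each population, 1 row per name, in the 4 libraries (circles control, squares heat stress, orange and brown SD, light and dark blue SC). In RPKM as deposited, SC control is the lowest point for 9 of the 10 kinesin names (green). The share over all shared names was not counted.

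The heat stress ratio of SC over that of SD was called past 2-fold, with its counting interval excluding 1, for 6 of the 27 member names and called lower for 0, against 11.7% and 9.82% of all shared names. This quotient is relative to the median shared name, which stood at a log2 value of 0.23, and not to the median contigs. Ratios to the median contig give smaller quotients, which for boursin and light chain 3a do not reach 2-fold. On the scale of the median shared name, the SC ratio was 2.80 times the SD ratio for kinesin-like protein a (2.24 to 3.51), 2.17 times for boursin (1.64 to 2.86) and 3.30 times for kif19 (1.31 to 8.28). It was 5.16 times for costal2 (1.25 to 21.3), 10.01 times for dynein heavy chain isoform c (1.69 to 59.2), and 2.05 times for light chain 3a, the 1 called name among the microtubule-associated proteins. The names called in the controls and in this difference share the SC control library, so they are not separate evidence.

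Length and level moved with the SC control library across all contigs, and their part in the kinesin values was not tested. The median log2 fold of SC over SD in the controls fell from 0.27 for shared names up to 300 bp to -0.60 for those over 3000 bp, while after heat stress these medians were 0.14 and -0.12. In the heat stress ratio of SC, contigs over 3000 bp had a median of 0.48 and those under 5 RPKM 0.66. Within classes of level, the 11 SC kinesins between 10 and 20 RPKM had a median of 0.93 against 0.06 for all contigs, and the 6 between 20 and 50 RPKM 0.87 against -0.35. The 14 under 5 RPKM had 0.64 against 0.66, and so did not stand apart from their class.

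**Figure D4:**
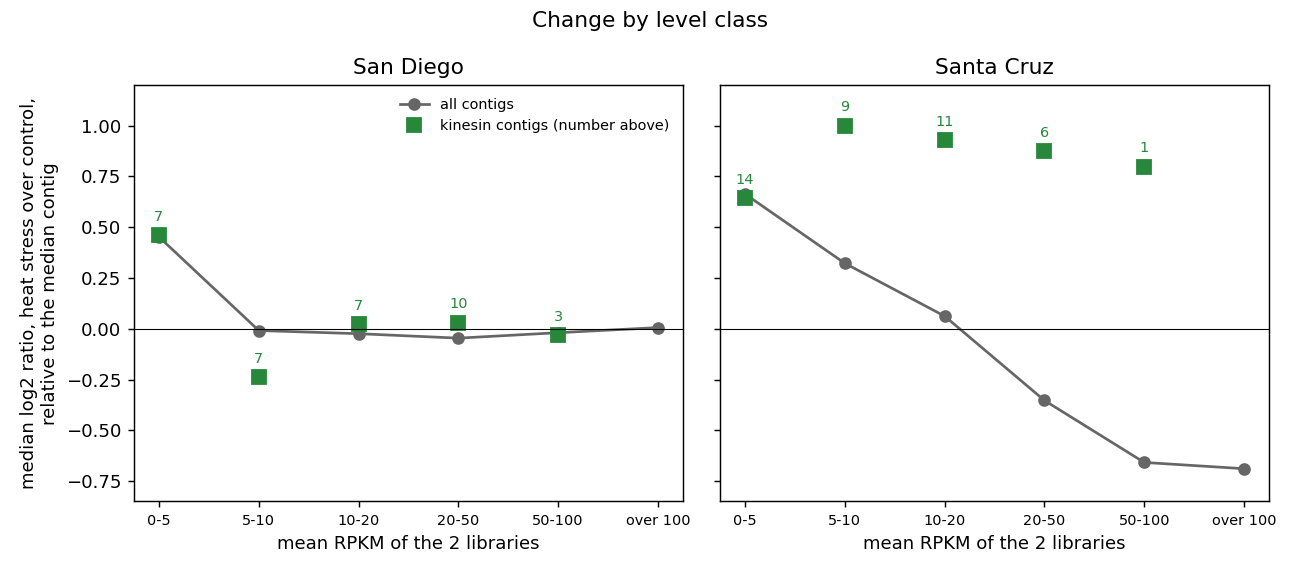
Median log2 ratio of heat stress to control relative to the median contig (y axis) by class of mean RPKM (x axis), for all contigs (grey line) and kinesin contigs (green squares with their number), SD left and SC right. In SC the grey line goes from 0.66 to -0.69 with level, and the kinesin medians lie between 0.64 and 1.

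Neighbouring pathways were set beside the members as counts of contigs matched by words in their names. Of all SC contigs 10.9% were called higher and 14.9% lower. In SC the centrosome and spindle list had 9 of 25 contigs called higher and 0 lower (median log2 ratio 0.89). Plus-end proteins had 2 of 3 higher and 0 lower, 1 contig being on both lists, after a sorbitol dehydrogenase that the words had matched by accident was left out in each population. Contigs with actin or myosin in the name had 46 of 144 higher and 14 lower (0.48), which include 3 SWI/SNF chromatin proteins with 1 of the lower calls. Subunits of the chaperonin that folds tubulin and actin had 0 of 5 higher and 2 lower (-0.50), without the t-complex proteins 10 and 11, which are not subunits of it. Prefoldin, which feeds it, had 0 of 5 called (-0.66). Severing proteins had 1 of 7 higher and 0 lower (-0.14), and cilium and axoneme proteins 0 of 3 called (0.46). Against 4.17% called higher and 3.67% lower of all SD contigs, these lists held few calls in SD. They were 0 of 29 for centrosome and spindle, 0 of 2 for plus ends, 2 higher and 2 lower of 134 for names with actin or myosin, 4 of which were SWI/SNF proteins with no call, 0 of 5 for chaperonin, 0 of 4 for prefoldin, 0 of 4 for severing proteins, and 0 higher and 1 lower of 14 for cilium and axoneme. Contigs with a bracketed name of an alga or protist, organisms rich in tubulin and ciliary dynein, numbered 37 in SD, with 0.321% and 0.225% of the RPKM in control and heat stress, and 40 in SC, with 0.0529% and 0.0663%. None of them is a member, and their part in the member values was not tested.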

How the data were processed

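Single-end reads of 4 libraries were trimmed by the authors in CLC Genomics Workbench, assembled with earlier reads into contigs for each population, and mapped to the population's own assembly at high identity. The values the authors deposited are RPKM per contig. The study describes shares of reads as uniquely mapped. Whether reads that fit several contigs were also counted is not given in the sources used here, which bears on near-identical tubulins. The files hold part of each assembly, and no column of another sample was used.

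Read numbers were worked out from RPKM. The library totals were searched for, and each contig took the shortest length at which both of its values came out as whole numbers of reads, which was possible for 100% of contigs. For 88.0% of SD and 100% of SC contigs a fit that good had a chance under 0.05, and for 16 SD members it did not. The reads are lower bounds, so intervals are wide. The length given for a contig is the smallest that was possible. Ratios were divided by the median ratio over contigs above 0 in both libraries, which is a scaling chosen here. Calls used exact (Clopper-Pearson) 95% intervals, and comparisons between populations log-normal intervals with 0.5 reads added. Neither gives a test of the condition, since each condition had 1 library, and no p-values were computed on conditions beyond Kal's *Z*-test between libraries at a Bonferroni p of at most 0.1, which was an alternative. A contig at 0 was set against a floor of 3 reads. Recovery and calls were tested on simulated data.

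The contigs to be named by rule were every tubulin and the 5 of highest mean RPKM in each other family. The rule also took up to 5 called contigs in each direction and every shared name called. Not all of these are named above. Many tubulins are given only within a range of RPKM, and some other contigs of high mean RPKM are left out. Others were named after their values were seen. The members and lists were chosen with earlier results of these data known. No sequence of a contig was used. Python 3.11.15, numpy 2.4.6, scipy 1.17.1, pandas 2.3.3 and matplotlib 3.10.9 were used.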

Additional observations from a re-analysis of the deposited data

Results flagged for a closer look

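Of the shared names, 3 kinesins lay below the median contig in SD and above it in SC, with a quotient of their heat stress ratios past 2-fold and a counting interval that excluded 1. The quotient is relative to the median shared name, so it exceeds that of the printed ratios, which are relative to the median contig. Kinesin family member 20a-like lay on the same sides, with a quotient of 3.10, but its interval (0.94 to 10.2) held 1. For kinesin-like protein a the ratio was 0.87 in SD and 2.12 in SC, a quotient of 2.80 (2.24 to 3.51). For kif19 the ratios were 0.85 and 2.43 and the quotient 3.30 (1.31 to 8.28). For costal2 they were 0.73 and 3.25 and the quotient 5.16 (1.25 to 21.3), on 2 reads in SC control. With 1 library per group the difference between the populations was not tested beyond counting error, and all 3 rest on SC control.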

How the results depend on the processing

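Of 84 values of 13 results under alternative settings, 66 stayed within 1.5 times the main count or, for a family median, within the wide interval of that median over contigs, and 18 did not. That interval held every value of the SC dynein and dynactin median, although it went from -0.07 to -0.80 with at least 10 control reads and to 0.32 as deposited. Counts were compared as totals, whatever their direction or contigs. Kal's *Z*-test on recovered reads kept the SD total of 2, but on other contigs, 0 higher and 2 lower. As deposited, SC members went from 19 higher and 7 lower to 30 and 2, and SC against SD control from 1 and 6 to 0 and 9. These totals were counted as having stayed. The 2 calls among SD members became 5 at 1.5-fold, 1 at 4-fold, 9 by fold alone, 1 with over 10 reads in 1 library, 0 with at least 10 reads in both, 5 with 1 RPKM added and fold alone, 1 by Kal's *Z*-test on RPKM and 1 with 1 contig per name. The 26 calls among SC members became 43 at 1.5-fold, 4 at 4-fold and 5 by Kal's *Z*-test on RPKM. With RPKM as deposited the median log2 ratio of SC tubulins went from -0.20 to 0.20 and that of SC kinesins from 0.86 to 1.25, by construction of the scaling, and relative to contigs of like level, an alternative chosen after seeing the data like that of like length, the tubulins stood at 0.37. Between the populations, the 7 names called in the controls became 13 at 1.5-fold and 18 where each name was taken on its contig with the most reads, and the 0 called after heat stress became 2 and 6. The cause of the other shifts was not tested. No paired analysis was possible because each population had 1 control and 1 heat stress library. Nor could any replicate be left out. Depth limits the members with 10 or fewer control reads, 29 in SD and 26 in SC.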
